A study of Arabidopsis thaliana with 36 samples.

Results

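Expansins are the non-enzymatic proteins that let plant cell walls creep under turgor, and 34 of the 32833 genes of the deposited count table carry the word expansin in their gene description. These 34 members were 25 alpha-expansins (EXPA), 5 beta-expansins (EXPB), 3 expansin-like A genes (EXLA) and 1 expansin-like B gene (EXLB). A further beta-expansin gene, EXPB3, has a description without that word and is not a member. Expansins act best in an acidified wall, where they loosen the contacts between cellulose and matrix polysaccharides, and growth by this route is called acid growth. Plasma membrane proton pumps of the AHA family acidify the wall, and small auxin-up RNA (SAUR) proteins relieve the pumps from inhibition. EXPA7 and EXPA18 are known for their expression in root hair cells, EXPA17 for lateral root formation, EXPA10 for leaf and petiole growth, and EXPA2 for seed germination. The expansin-like proteins share the family's domains, and no wall-loosening activity is established for them.

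The members were read from RNA-seq of shoots and roots of 11-day-old Arabidopsis thaliana seedlings, separated from lots of 18 seedlings, with 3 independent biological replicates in each of 12 groups. In each tissue the groups were tpst given PSK at 10 nM and sampled after 30 min, 2 h or 5 h or kept in it for 11 days, untreated tpst, and untreated wild type (Col-0). PSK is phytosulfokine, a sulfated growth peptide. The mutant, tpst-1, is a single T-DNA insertion line in the Col-0 background that lacks the enzyme sulfating PSK and the other tyrosine-sulfated peptides. All groups grew in liquid medium with sucrose under long days. For the 30 min, 2 h and 5 h groups the medium was exchanged for fresh medium with PSK, the 11-day group germinated in PSK, and both untreated groups kept their medium, so the peptide and the fresh medium cannot be told apart at the 3 short times. The hour of collection is not given in the sources used here.

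The libraries held 21559655 to 36921510 counts. TPST, the gene hit in the mutant, had 5.29 to 8.44 CPM (counts normalised to library size) in tpst shoots against 14.2 to 16.6 in Col-0 shoots, and 11.4 to 16.8 in tpst roots against 26.4 to 28.4 in Col-0 roots. The summed level of 11 photosynthesis genes used as shoot markers was 297 to 902 CPM in 17 of the 18 root libraries and 2130 CPM in untreated tpst root replicate 3, against 32596 to 54499 CPM in shoots. The summed level of 7 root markers was 7023 to 11148 CPM in roots and 580.3 to 1150.1 CPM in shoots. Root results that rest on untreated tpst root replicate 3 are also given without it.

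Of the 34 members, 24 had enough counts to be tested in shoots and 24 in roots, 23 of them in both, so 25 were tested in at least 1 tissue. The test was edgeR's quasi-likelihood test, with p-values adjusted by the Benjamini-Hochberg method over all genes tested in a tissue, and a gene was called at an adjusted p under 0.05 with at least a 2-fold change. The 9 members tested in neither tissue had 0 to 93 counts summed over the 36 libraries, and 7 of them (EXPA22 to EXPA26, EXPB4 and EXPB5) had 0 counts in every library. EXPA22 and EXPA26 share 97.7% of their coding bases and EXPA23 and EXPA25 97.5%, so reads of these pairs could map to more than 1 place. No other pair of members was over 90% identical. The 3 EXLA genes were 83% to 86.6% identical in coding sequence, and EXPA7 and EXPA18 were 74.5% identical. The library kit did not mark the strand, and EXLA1, EXPA2, EXPA7 and EXPA18 overlap a gene on the other strand over 22 to 61 bases. EXPA20 overlaps one over 1061 bases, so its counts cannot be assigned to EXPA20 alone.

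The region of 300 bases before the annotated gene start is shown for 3 members: EXPA10, the most abundant shoot expansin over the 18 shoot libraries, and EXPA7 and EXPA18, the root hair pair. Coordinates are from the RefSeq annotation of TAIR10.1, and all 34 members have the same gene coordinates there as in the deposited table. All 3 genes lie on the plus strand of chromosome 1, and the runs read 5′ to 3′ along it. Capitals mark the E-box CACATG on either strand in EXPA10, where a forward and a reverse match overlap, and the root hair element in EXPA7 and EXPA18.
EXPA10 (chr1:9259132-9259431): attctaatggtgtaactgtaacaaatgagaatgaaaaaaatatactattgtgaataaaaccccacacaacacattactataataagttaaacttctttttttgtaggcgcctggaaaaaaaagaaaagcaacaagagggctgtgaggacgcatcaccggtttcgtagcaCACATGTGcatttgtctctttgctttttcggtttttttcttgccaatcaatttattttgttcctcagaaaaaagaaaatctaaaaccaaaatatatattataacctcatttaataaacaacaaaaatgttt
EXPA7 (chr1:4276205-4276504): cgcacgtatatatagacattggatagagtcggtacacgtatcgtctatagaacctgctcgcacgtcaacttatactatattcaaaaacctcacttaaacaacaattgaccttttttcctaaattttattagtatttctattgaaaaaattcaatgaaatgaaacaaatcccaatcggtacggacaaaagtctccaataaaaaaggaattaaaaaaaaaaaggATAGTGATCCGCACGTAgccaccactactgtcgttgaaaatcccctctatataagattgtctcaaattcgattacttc
EXPA18 (chr1:23331263-23331562): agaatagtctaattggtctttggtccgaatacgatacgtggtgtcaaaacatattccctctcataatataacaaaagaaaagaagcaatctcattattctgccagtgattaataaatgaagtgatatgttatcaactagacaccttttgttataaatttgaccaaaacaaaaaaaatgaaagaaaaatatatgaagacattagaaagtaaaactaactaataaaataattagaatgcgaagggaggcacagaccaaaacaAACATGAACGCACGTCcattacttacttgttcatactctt
The root hair element, a degenerate motif known from promoters of root hair genes, was found on either strand in 2 of the 34 members, EXPA7 and EXPA18, and in 0.915% of 27443 protein-coding genes. EXPA7 and EXPA18 are themselves known root hair genes, so these 2 matches are no independent result and cannot be read as an enrichment. The E-box CACATG was found in 9 members (26.5%, against 13.1% of all genes), and the G-box CACGTG in 2 members, EXPA2 and EXPB2 (5.88%, against 7.09%). The auxin response element TGTCTC was present in 4 members (11.8%, against 13%), the W-box core TTGAC in 15 members (44.1%, against 50.4%), and the evening element AAAATATCT in 0 members (2.79% of all genes). The E-box differs from the G-box by 1 base, and no position was counted under both. Part of the EXPA18 region also belongs to the overlapping gene AT1G62978 on the minus strand. A match to these letters is a description of the sequence only.

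Col-0 plants gave the levels without mutation or added peptide, and most expansins were unequal between the organs. In the fit of all 36 libraries, over which these CPM are scaled, 12 of 25 tested members were higher in Col-0 roots than in Col-0 shoots (48% of members, against 21.5% of all genes) and 6 were lower (24%, against 19.8%). The root hair expansin EXPA7 had 32.7, 27.2 and 29.9 CPM in the 3 Col-0 root libraries and 0.467, 0.166 and 0.895 CPM in the 3 Col-0 shoot libraries (log2 fold change 5.93 ± 0.34 SE, adjusted p = 2.01e-15). EXPA18 had 33.5, 22.4 and 23.9 CPM in roots and 0.415, 0.29 and 0.737 CPM in shoots (log2 fold change 5.82 ± 0.38 SE, adjusted p = 6.95e-14). EXPA17 had 18.6, 19.3 and 17.2 CPM in roots and 0.727, 0.58 and 0.158 CPM in shoots (log2 fold change 5.20 ± 0.36 SE, adjusted p = 2.1e-13). For these 3 genes every root library lay above every shoot library.

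EXPB2 had 0.986, 1.16 and 1.48 CPM in Col-0 roots and 0.0519, 0 and 0.0527 CPM in Col-0 shoots, where its 3 libraries held 2 counts in all against 100 in roots, a ratio of 37.4 with a 95% exact counting interval of 10.1 to 312.9. EXPA12, EXPA14, EXPB1, EXPA15, EXLA3, EXPA9, EXPA4 and EXPA11 were the other members called higher in roots, with log2 fold changes between 1.11 and 4.40. On the shoot side, EXPA5 had 0.127, 0.239 and 0.297 CPM in roots and 38.7, 39.5 and 32.9 CPM in shoots (log2 fold change -7.39 ± 0.46 SE, adjusted p = 3.48e-14), and EXPA16 had 0.159, 0.399 and 0.223 CPM in roots and 12.8, 12.3 and 13.7 CPM in shoots (log2 fold change -5.65 ± 0.39 SE, adjusted p = 8.28e-14). EXPA3, EXPA10 and EXPA6 were also lower in roots, with log2 fold changes of -4.71, -3.49 and -1.05. EXPA2 had 0 counts in Col-0 roots and 23 in Col-0 shoots, so it was at least 10.3-fold lower in roots, against a floor of 3 counts over the group. Counting intervals and floors cover counting error only.

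**Figure D1:**
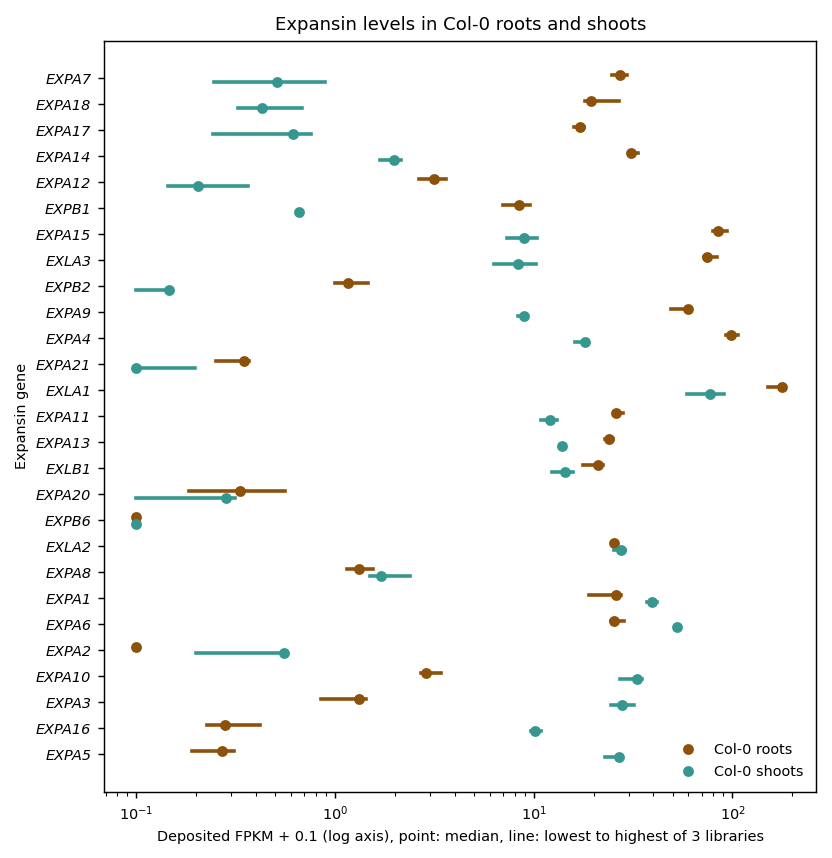
Deposited FPKM plus 0.1 (log axis) of the 27 expansins with a read in any library, in Col-0 roots and Col-0 shoots. Points are medians and lines run from the lowest to the highest of 3 libraries. EXPA7, EXPA18 and EXPA17 stand at the root end, and EXPA5, EXPA16 and EXPA3 at the shoot end.

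Levels were compared between genes in the deposited FPKM, which are per length. Over the 18 root libraries the highest medians were those of EXPA4, EXPA9 and EXPA17, with 150.1 (92.4 to 198), 75.1 (49.1 to 91.6) and 67.7 (15.9 to 89) FPKM, the range in brackets. Over the 18 shoot libraries EXPA10 led with 131 (27.2 to 309) FPKM, before EXPA1 with 60.6 (37.1 to 84) and EXPA6 with 43.1 (17.7 to 53.1). The ranges of EXPA4 and EXPA9 in roots did not overlap, while those of EXPA9 and EXPA17 in roots and of both neighbouring pairs in shoots did. The order depended on the condition: in Col-0 alone EXLA1 led both tissues with medians of 178 FPKM in roots and 77.1 in shoots. EXPA17 had 17 FPKM in Col-0 roots, and EXPA10 had 33.1 in Col-0 shoots, after EXPA6 (52.5) and EXPA1 (39.4).

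PSK was added to tpst to see which genes follow the peptide over time, and in shoots EXPA10 was the 1 expansin called at every time. EXPA10 had 151, 146 and 152 CPM in the 30 min group, 228, 232 and 209.7 in the 2 h group, 421, 236 and 210.3 in the 5 h group and 273, 213 and 220.4 in the 11-day group, against 62.8, 57.2 and 75.6 CPM in untreated tpst and 46.3, 49.3 and 37.7 in Col-0. All 12 PSK libraries lay above all 6 untreated ones, and 1 library at 5 h stood above the other two. In the first 30 min EXPA10 rose 2.29-fold (log2 fold change 1.20 ± 0.21 SE, adjusted p = 0.00604). The rise was 3.42-fold at 2 h (log2 fold change 1.77 ± 0.21 SE, adjusted p = 2.72e-05) and 4.43-fold at 5 h (log2 fold change 2.15 ± 0.21 SE, adjusted p = 7.53e-07). After 11 days it was 3.61-fold (log2 fold change 1.85 ± 0.21 SE, adjusted p = 4e-06). Each of these calls was kept without any 1 library. Without the high library, 5 h replicate 1, the 5 h log2 fold change was 1.78.

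EXPA10 was the single member called at 30 min in shoots, 1 of 24 higher (4.17%, against 0.36% of 20811 genes) and 0 lower (against 0.25%). The other 23 members had log2 fold changes of -0.57 to 0.64, 4 of the 24 reached an unadjusted p under 0.05, and with DESeq2 1 was called higher and 0 lower. The share of all genes at an unadjusted p under 0.05 was not computed, here or below, so such counts of members have no background beside them. EXPA10 alone made up 25.8% to 60.6% of all expansin counts in PSK shoots, against 12.3% to 16.2% in untreated tpst and 8.07% to 10.4% in Col-0. The whole family took 0.0548% to 0.0663% of all counts in PSK shoots, against 0.0474% to 0.0479% in untreated tpst. Without EXPA10 the family's share was 0.0258% to 0.0448% in PSK shoots, against 0.0398% to 0.0421% in untreated tpst, so the groups overlapped once this 1 gene was left out. At 5 h the share without EXPA10 was 0.0258% to 0.0352%, below all 3 untreated tpst libraries.

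At 2 h, 3 of 24 members were higher in shoots (12.5%, against 1.9% of all genes) and 0 lower (against 2.22%). Beside EXPA10 these were EXPA2, the germination expansin, and the beta-expansin EXPB1, both under 1 CPM on average in either group, with log2 fold changes of 2.18 (adjusted p = 0.0209) and 1.24 (adjusted p = 0.0463). Neither call held over all left-out libraries: EXPA2 was lost without untreated replicate 2 or 3 or 2 h replicate 2, and EXPB1 was lost without any 1 library except 2 h replicate 1, with log2 fold changes of 1.62 to 3.08 for EXPA2 and 0.67 to 1.51 for EXPB1. The count of higher members was then 1 without untreated replicate 2, untreated replicate 3 or 2 h replicate 2, and it was also 1 under a stricter filter on low counts. EXPA1, the second expansin of shoots by level, had 112, 100.2 and 97.1 CPM at 2 h against 64.7, 56 and 54.1 in untreated tpst, with no overlap. Its change passed the adjusted p and not the 2-fold minimum at 2 h (log2 fold change 0.82 ± 0.12 SE, adjusted p = 0.000103), 5 h (log2 fold change 0.63) and 11 days (0.77). Among all 24 members 9 reached an unadjusted p under 0.05 at 2 h, DESeq2 called 1 lower, and without 2 h replicate 3 edgeR called 2 lower.

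The 5 h shoots held the largest set of expansin calls of the 8 comparisons with untreated tpst, 9 of 24, with 3 higher (12.5%, against 7.7% of all genes) and 6 lower (25%, against 9.22%). EXPA8, an alpha-expansin at low level until then, had 8.48, 5.75 and 4.37 CPM at 5 h against 1.63, 0.804 and 1.8 in untreated tpst (log2 fold change 2.12 ± 0.45 SE, adjusted p = 0.000727). The other PSK groups had 1.92, 0.492 and 1.39 CPM (30 min), 1.63, 1.72 and 0.92 CPM (2 h) and 3.71, 2.01 and 1.17 CPM (11 days), so its libraries cleared the untreated ones at 5 h only. The third member called higher was EXPA2 (log2 fold change 1.71, adjusted p = 0.0413), a call that was kept only without untreated replicate 1 when single libraries were left out (log2 fold changes 1.14 to 2.61).

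The members that fell at 5 h included 3 that are well expressed in shoots. EXPA3 had 10.9, 10.1 and 12.5 CPM at 5 h against 44.1, 38.6 and 32.7 in untreated tpst, and fell 3.45-fold (log2 fold change -1.79 ± 0.13 SE, adjusted p = 3.63e-09). EXPA6 had 24.3, 24.9 and 26.6 CPM at 5 h against 61.7, 67.3 and 62.5 in untreated tpst, and fell 2.53-fold (log2 fold change -1.34 ± 0.11 SE, adjusted p = 1.06e-08). EXPA13 had 5.9, 7.87 and 8.75 CPM at 5 h against 18.9, 20.6 and 19.5 in untreated tpst, and fell 2.61-fold (log2 fold change -1.39 ± 0.12 SE, adjusted p = 3.57e-08). The groups did not overlap for any of the 3, and no left-out library changed these calls. At 30 min EXPA6 stood at 65.3, 59.2 and 68.4 CPM, overlapping untreated tpst. At 2 h EXPA3 and EXPA13 passed the adjusted p below the 2-fold minimum (log2 fold changes -0.60 and -0.50).

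**Figure D2:**
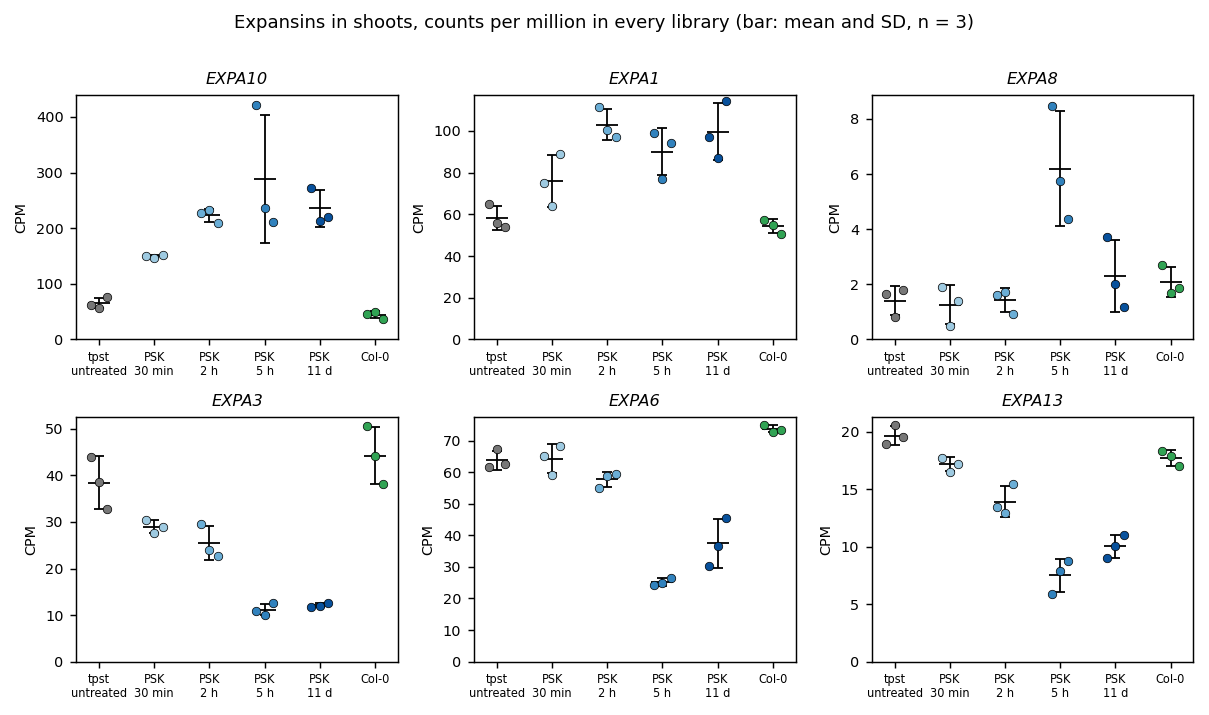
CPM of 6 expansins in every shoot library by group, with untreated tpst, the PSK times in order and Col-0 on the horizontal axis. Points are libraries and bars are the mean and SD of 3. EXPA10 stood above both untreated groups at all 4 PSK times, EXPA8 rose at 5 h, and EXPA3, EXPA6 and EXPA13 had their lowest group mean at 5 h.

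EXPA7, EXPA18 and the expansin-like EXLA3 were the remaining members called lower at 5 h. EXPA7 had 0.461, 1.02 and 0.729 CPM at 5 h in shoots against 2.24, 2.89 and 1.9 in untreated tpst (log2 fold change -1.65 ± 0.45 SE, adjusted p = 0.00422), and EXPA18 had 0.277, 0.978 and 0.691 CPM against 2.11, 2.49 and 1.32 (log2 fold change -1.57 ± 0.46 SE, adjusted p = 0.00799). EXLA3 fell by 1.32 on the log2 scale (adjusted p = 0.0155), and lost its call without 5 h replicate 1 (log2 fold change -1.16) or replicate 3 (-1.18). A further 8 members passed the adjusted p at 5 h below the 2-fold minimum, EXPA1, EXPA11 and EXPA14 upwards and EXPA4, EXPA5, EXPA9, EXPA17 and EXLB1 downwards.

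After 11 days in PSK, 2 of 24 members were higher in shoots (8.33%, against 6.96% of all genes) and 4 lower (16.7%, against 7.69%), and the share of higher members was near that of all genes. EXPA3 stayed low, with 11.8, 11.9 and 12.6 CPM at 11 days against 44.1, 38.6 and 32.7 in untreated tpst (log2 fold change -1.67 ± 0.13 SE, adjusted p = 9.47e-09). EXPA6 and EXPA13 had 30.2, 36.8 and 45.5 CPM and 9.02, 10.04 and 11 CPM, both under the 2-fold minimum (log2 fold changes -0.77 and -0.98, adjusted p = 7.98e-06 and 2.48e-06). EXPA7 had 0.408, 0.694 and 0.538 CPM (log2 fold change -2.09 ± 0.46 SE, adjusted p = 0.001) and EXPA18 had 0.891, 0.511 and 0.493 CPM (log2 fold change -1.62 ± 0.46 SE, adjusted p = 0.00728), in both cases below all 3 untreated tpst libraries. EXPB2, with both group means under 1 CPM, was the other member called lower (log2 fold change -2.03, adjusted p = 0.00618). EXPA2 was the other one called higher (log2 fold change 1.98, adjusted p = 0.0205), its groups overlapped, and the call was lost without untreated replicate 2 (1.41) or 3 (1.97) or 11-day replicate 3 (1.29), which left EXPA10 as the 1 member higher. Without 11-day replicate 3 the count of lower members was 8.

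The 5 h and 30 min shoots both had their medium exchanged, so their comparison holds that step in common, while the time since the exchange differs. Of the 11 dawn clock genes described below, 7 were higher at 5 h than at 30 min and 0 lower (list median 1.87). The part of the time of day was not tested. Of 24 members, 2 were higher at 5 h than at 30 min (8.33%, against 5.22% of all genes) and 5 were lower (20.8%, against 5.31%). EXPA8 and EXPA14 were higher, with log2 fold changes of 2.31 (adjusted p = 0.000549) and 1.20 (adjusted p = 0.00131). EXPA3, EXPA6 and EXPA13 were lower, with log2 fold changes of -1.38, -1.35 and -1.19 (adjusted p = 1.72e-07, 2.38e-08 and 4.69e-07), and these held without any 1 library. EXPA7 (-1.23) and EXLB1 (-1.03) were the other members lower. EXPA7 was kept only without 30 min replicate 3 or 5 h replicate 2 (log2 fold changes -1.54 to -1.001 over the 6), and EXLB1 was lost without 30 min replicate 3 (-0.83) or 5 h replicate 1 (-0.80), and 3 members were lower without 5 h replicate 1. EXPA10 was higher at 5 h below the 2-fold minimum (log2 fold change 0.95).

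The clock and the pump genes were read beside the shoot expansins. The median log2 fold change of 11 dawn clock genes, such as CCA1 and LHY, the morning transcription factors of the circadian clock, stood at 0.45 for 30 min, 0.95 for 2 h, 2.05 for 5 h and 2.08 for 11 days, where the median of all genes was -0.01. Of the 11, 0 were called at 30 min, 5 were higher in the 2 h shoots, 8 in the 5 h and 8 in the 11-day shoots, and none was lower. At 30 min 4 of the 11 passed the adjusted p under the 2-fold minimum. LHY rose by 1.74 on the log2 scale at 2 h, by 2.74 at 5 h and by 3.32 over the 11 days. The part of the time of day in the expansin changes was not tested. Of 14 tested acid growth genes (AHA pumps and SAUR19 to SAUR24), 0 were called at 30 min and 2 h. At 5 h the proton pump genes AHA9 and AHA11 rose (log2 fold changes 2.83 and 1.12), and at 11 days AHA9 rose (2.22) and SAUR24 fell (-1.34). The median of the acid growth list was 0.06, 0.17, 0.25 and 0.09 over the 4 times.

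Untreated tpst against Col-0 asks what the loss of sulfated peptides does to the family. In shoots 4 of 24 members were higher in tpst (16.7%, against 4.3% of all genes) and 1 lower (4.17%, against 1.26%), and the 4 were all root-enriched in Col-0. EXPA17 had 4, 5.54 and 4.6 CPM in tpst shoots against 0.637, 0.508 and 0.138 in Col-0 shoots (log2 fold change 3.43 ± 0.46 SE, adjusted p = 4.53e-05). EXPA7 had 2.24, 2.89 and 1.9 CPM in tpst shoots against 0.41, 0.145 and 0.779 in Col-0 shoots (log2 fold change 2.43 ± 0.48 SE, adjusted p = 0.00117), and EXPA18 had 2.11, 2.49 and 1.32 against 0.364, 0.254 and 0.642 (log2 fold change 2.24 ± 0.50 SE, adjusted p = 0.0029). The groups did not overlap, and these 3 calls held without any 1 library. EXPB2 rested on 70 counts in tpst and 2 in Col-0, a ratio of 32.4 with a 95% exact counting interval of 8.64 to 272.9 (edgeR adjusted p = 0.000313). Of the 11 dawn clock genes 3 were higher in tpst shoots and 0 lower (list median 0.76). The part of the time of day was not tested.

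EXLA1 had 14.1, 24 and 38.6 CPM in tpst shoots against 55.7, 73.6 and 84.7 in Col-0 shoots (log2 fold change -1.47 ± 0.48 SE, adjusted p = 0.0404), and lost its call without any 1 library except untreated tpst replicate 3 (log2 fold changes -1.90 to -1.19), which left 0 members lower. It was also lost with no filter on low counts and in the fit of these 6 libraries alone.

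The shoot levels of EXPA7, EXPA18, EXPA17 and EXPB2 were between 0 and 5.54 CPM. Of 9 tested root hair genes, 5 were higher in tpst shoots than in Col-0 shoots and 0 lower, among them the wall protein genes PRP3, LRX1 and PRP1 (log2 fold changes 1.77, 1.95 and 1.79), with a list median of 1.38. At 5 h of PSK 3 were lower and 1 higher, PRP1 and PRP3 among the lower ones (-2.73 and -1.12) and GL2 as the higher one (adjusted p = 3.39e-05). GL2 represses hair fate in roots, and its role in these shoots was not tested. At 11 days of PSK 4 were lower, PRP1 and PRP3 again among them (-3.10 and -1.50), and GL2 was higher (1.07), with a list median, GL2 included, of -1.06. The summed level of the 7 root markers in shoots was 725.5 to 790.9 CPM at 11 days, 774.4 to 909.3 at 5 h and 925.2 to 1077 in untreated tpst, against 580.3 to 680.3 in Col-0. Among the 7, 1 was called higher in tpst than in Col-0 shoots and 0 lower, with a list median of -0.00163. What part root tissue or hair-like cells in the shoot samples had in these 4 expansins was not tested, and in bulk tissue fewer cells of a type and less RNA per cell cannot be told apart.

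**Figure D3:**
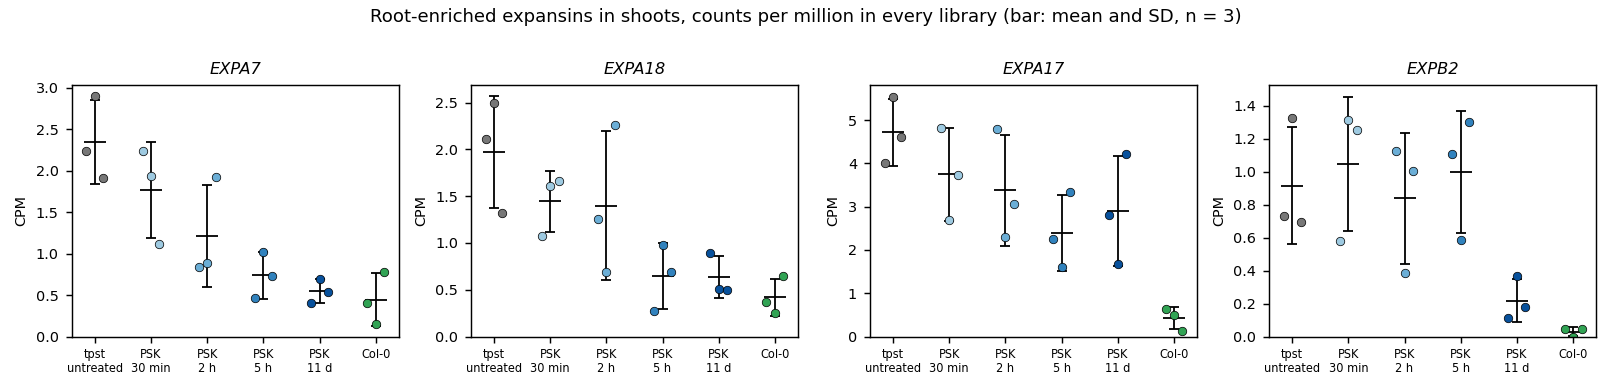
CPM of the root-enriched expansins EXPA7, EXPA18, EXPA17 and EXPB2 in every shoot library by group, from untreated tpst over the PSK times to Col-0. Points are libraries and bars are the mean and SD of 3. All 4 were higher in untreated tpst than in Col-0, and EXPA7 and EXPA18 were below untreated tpst at 5 h and 11 days.

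Shoots of tpst after 11 days of PSK were also set against Col-0. Here 8 of the 11 dawn clock genes were higher and 0 lower (list median 2.44), and the part of the time of day was not tested. Of 24 members, 3 were higher (12.5%, against 10.5% of all genes) and 3 lower (12.5%, against 9.16%). EXPA10 stood at 273, 213 and 220.4 CPM against 46.3, 49.3 and 37.7 in Col-0 (log2 fold change 2.41 ± 0.21 SE, adjusted p = 2.25e-07), and EXPA3 at 11.8, 11.9 and 12.6 against 50.6, 44.1 and 38.2 (log2 fold change -1.87 ± 0.13 SE, adjusted p = 1.15e-09). EXPA17 had 2.82, 1.68 and 4.22 CPM at 11 days against 0.637, 0.508 and 0.138 in Col-0 (log2 fold change 2.72 ± 0.47 SE, adjusted p = 8.93e-05). These 3 calls held without any 1 library, and the groups did not overlap. EXLA3 had 2.86, 6.83 and 4.13 CPM against 7.51, 10.05 and 12.2 (log2 fold change -1.10 ± 0.40 SE, adjusted p = 0.0266), a call kept only without Col-0 replicate 1 or 11-day replicate 2 (log2 fold changes -1.49 to -0.82). EXPB1, under 1 CPM, was lower (-1.51) and lost its call without 11-day replicate 2 (-1.18). EXPB2 rested on 17 counts against 2 in Col-0, a ratio of 7.91 with a 95% exact counting interval of 1.88 to 70.6, and lost its call without 11-day replicate 2 or Col-0 replicate 2 (log2 fold change 2.18 in both). EXPA7 and EXPA18 had log2 fold changes of 0.34 and 0.62 against Col-0 (adjusted p = 0.609 and 0.343).

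In roots 0 to 2 expansins were called at each PSK time. At 30 min 0 of 24 members were called in either direction, where 0.0796% of 21358 genes were higher and 0.375% lower, and 5 of the 24 reached an unadjusted p under 0.05 in edgeR's test. DESeq2 also called 0. The 2 h roots had 1 member higher (4.17%, against 0.379%) and 0 lower (against 0.918%). At 5 h 2 were higher (8.33%, against 1.35%) and 0 lower (against 1.01%), and at 11 days 1 was higher (4.17%, against 1.1%) and 0 lower (against 0.81%). In those 3 comparisons 8, 8 and 7 members reached an unadjusted p under 0.05, counts for which the share of all genes was not computed. With DESeq2 none was lower. Without 5 h replicate 3 edgeR called 1 member lower at 5 h.

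EXPA8 was the member that rose at 2 h, 5 h and 11 days in roots. The 30 min roots had 6.47, 4.18 and 6.76 CPM, the 2 h roots 7.38, 7.28 and 7.47, the 5 h roots 12.2, 9.93 and 5.19 and the 11-day roots 8.96, 5.23 and 10.2, against 3.65, 3.33 and 2.35 in untreated tpst. All 12 PSK root libraries lay above the 3 untreated tpst libraries. EXPA8 rose 2.37-fold in the 2 h roots (log2 fold change 1.25 ± 0.30 SE, adjusted p = 0.031), 2.93-fold at 5 h (log2 fold change 1.55 ± 0.30 SE, adjusted p = 0.00269) and 2.62-fold at 11 days (log2 fold change 1.39 ± 0.30 SE, adjusted p = 0.00615). The 5 h and 11-day calls held without any 1 library. The 2 h call was lost without each of the 6 libraries in turn (log2 fold changes 1.07 to 1.37), for example without untreated tpst root replicate 3, the library with the high shoot markers (1.07, adjusted p = 0.118).

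EXPA10 was the other root member called at 5 h. The 30 min roots had 8.67, 8.44 and 9.2 CPM, the 2 h roots 22, 13 and 10.8, the 5 h roots 29.1, 18 and 11.7 and the 11-day roots 23.2, 10.6 and 11.7, against 9.17, 9.79 and 8.64 in untreated tpst. The change at 5 h (log2 fold change 1.09 ± 0.34 SE, adjusted p = 0.0373) was kept only without 5 h replicate 3, and without 5 h replicate 1 the log2 fold change was 0.68, so 1 member was higher at 5 h in 5 of the 6 such fits. In each of the 2 h, 5 h and 11-day groups replicate 1 was the highest for EXPA10. EXPA10 is more abundant in shoots, and the summed shoot markers were 423 to 558 CPM in the 2 h roots, 524 to 892 CPM in the 5 h roots and 537 to 902 CPM in the 11-day roots, against 353, 313 and 2130 CPM in untreated tpst roots. Their part in the EXPA10 values was not tested. EXPB1 had 17.1, 20.7 and 21.8 CPM in the 2 h roots, 19.8, 19 and 16.1 in the 5 h roots and 16.6, 17.2 and 22.2 in the 11-day roots, against 10.1, 10.5 and 9.44 in untreated tpst, with no overlap. It passed the adjusted p at all 3 times and stayed under the 2-fold minimum (log2 fold changes 0.99, 0.87 and 0.90, adjusted p = 0.00507, 0.00291 and 0.00297).

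The root hair expansins did not pass the test with a 2-fold change in roots at any PSK time. EXPA7 had 71.4, 59.8 and 49.3 CPM in the 30 min roots, 63.1, 57.3 and 49.9 in the 2 h roots, 34, 25.9 and 32.9 in the 5 h roots and 39, 41.9 and 46.5 in the 11-day roots, against 65.1, 40.4 and 51.7 in untreated tpst and 38, 31.8 and 35 in Col-0. At 5 h all 3 libraries lay below untreated tpst, and its decrease passed the adjusted p under the 2-fold minimum (log2 fold change -0.76 ± 0.17 SE, adjusted p = 0.00567). For 30 min, 2 h and 11 days its log2 fold changes were 0.20, 0.11 and -0.30 (adjusted p = 0.609, 0.727 and 0.231). EXPA18 had 68, 50.6 and 45.7 CPM in the 30 min roots, 62.3, 59.2 and 48.9 in the 2 h roots, 39.4, 25.3 and 40.1 in the 5 h roots and 45.5, 38.9 and 44.1 in the 11-day roots, against 54.8, 34.5 and 46.7 in untreated tpst and 38.9, 26.1 and 28 in Col-0. Its groups overlapped untreated tpst at every time, with log2 fold changes of 0.27, 0.32, -0.38 and -0.08 (SE 0.21 each). Of 11 root hair genes in roots, the transcription factors RSL1 and RSL2 were higher at 2 h (log2 fold changes 1.15 and 1.26) and PRP1 was lower at 5 h (-1.32), with 0 called at 30 min and 11 days.

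EXPA4 and EXPA9, the most abundant root expansins by median FPKM, stayed under the 2-fold minimum at all PSK times. EXPA4 had 242, 215 and 324 CPM at 5 h and 244, 271 and 236 at 11 days, against 334, 334 and 340.2 in untreated tpst, with log2 fold changes of -0.37 and -0.43 (adjusted p = 0.0495 and 0.0306). EXPA9 had 92.3, 125 and 144 CPM at 11 days against 139, 136 and 133 in untreated tpst (log2 fold change -0.17, adjusted p = 0.486). Among the uncalled root values of PSK against untreated tpst, -2.28 for EXPA5 at 30 min and 2.14 for EXPA16 at 11 days were those of members under 3 CPM in every root library. EXPA5 had 0.397, 0.278 and 2.61 CPM in the 3 untreated tpst root libraries, and its high value stood in replicate 3, the library with the high shoot markers. Among the other lists, 9 of 11 dawn clock genes were higher at 5 h and 9 at 11 days (list medians 2.13 and 2.04), 4 were higher in 2 h roots (0.65) and 0 in 30 min roots (0.27), and 0 of 10 tested acid growth genes were called at any time. The part of the time of day in the root changes was not tested either. In the comparison of 5 h with 30 min roots, 1 member was higher (4.17%, against 0.707% of all genes) and 0 lower (against 0.262%), with 8 of 24 at an unadjusted p under 0.05 and 0 lower by DESeq2. That member was EXPA10 (log2 fold change 1.16, adjusted p = 0.0452), a call kept only without 5 h replicate 3 (log2 fold changes 0.75 to 1.41). Without 5 h replicate 3, 2 members were higher, and EXPA7 was lower without 30 min replicate 3, 5 h replicate 1 or 5 h replicate 3, against -0.96 with all libraries (adjusted p = 0.00325). Of the 11 dawn clock genes 8 were higher in 5 h than in 30 min roots and 0 lower (list median 1.70).

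The genotype comparison had 5 called members in roots. In untreated tpst roots 4 of 24 members were higher than in Col-0 (16.7%, against 2.95% of all genes) and 1 lower (4.17%, against 3.49%). EXPA17, the lateral root expansin, had 109.7, 113 and 101 CPM in tpst roots against 21.6, 22.6 and 20.1 in Col-0 roots, 5.04-fold higher (log2 fold change 2.33 ± 0.14 SE, adjusted p = 2.17e-08). EXPB2 had 17.4, 16.4 and 16.3 CPM in tpst roots against 1.14, 1.35 and 1.74 in Col-0 roots, 11.8-fold higher (log2 fold change 3.57 ± 0.37 SE, adjusted p = 1.57e-05). EXPA12 had 15.5, 20.4 and 18 CPM in tpst roots against 4.69, 3.4 and 4.08 in Col-0 roots (log2 fold change 2.14 ± 0.48 SE, adjusted p = 0.00641), and EXPA1 had 109, 114 and 107 against 33.7, 49.3 and 46.4 (log2 fold change 1.35 ± 0.24 SE, adjusted p = 0.0014). None of these groups overlapped, and the 4 calls held without any 1 library, untreated tpst root replicate 3 included. EXPA17 held 7.16% to 8.37% of all expansin counts in untreated tpst roots and 1.74% to 1.99% in Col-0 roots.

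EXLA2 had 9.21, 13.5 and 14.6 CPM in tpst roots against 33.6, 32.4 and 32.8 in Col-0 roots (log2 fold change -1.40 ± 0.47 SE, adjusted p = 0.0457), and lost its call without each of the 6 libraries in turn (log2 fold changes -1.52 to -1.22), so that 0 members were then lower. EXLA1 had 43.6, 63.6 and 86.8 CPM against 224, 187 and 219 (log2 fold change -1.70, adjusted p = 0.0575), with no overlap and no call. EXPA4, EXPA6, EXPA7, EXPA9 and EXLB1 passed the adjusted p upwards below the 2-fold minimum (log2 fold changes 0.46 to 0.97), and EXPA11 and EXPB1 downwards (-0.58 and -0.54). The median of the 24 members was 0.57, where that of all genes was 0.02. Of the 24, 19 had an unadjusted p under 0.05. The share of all genes at that p was not computed, so this count is no result about the family. Of 4 LBD transcription factors of lateral root formation, LBD33 was higher in tpst roots (log2 fold change 2.11, adjusted p = 0.00015), and LBD16, LBD18 and LBD29 were not called. Their link to the EXPA17 values was not tested. Among the root markers CASP1 and CASP2, genes of the endodermal barrier, were lower in tpst roots (-1.06 and -1.33), and the sum of the 7 markers was 7175 to 8349.9 CPM in tpst against 10661 to 11148 in Col-0. The part of cell composition in the expansin differences was not tested. Of the 11 dawn clock genes 0 were called between tpst and Col-0 roots (list median -0.03).

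After 11 days of PSK, tpst roots still differed from Col-0 roots in 8 of 24 members, 6 higher (25%, against 3.62% of all genes) and 2 lower (8.33%, against 4.19%). EXPA17 had 87, 82.7 and 92.3 CPM against 21.6, 22.6 and 20.1 in Col-0 (log2 fold change 2.03 ± 0.13 SE, adjusted p = 8.97e-08), EXPB2 had 11.6, 10.5 and 23.6 against 1.14, 1.35 and 1.74 (log2 fold change 3.44 ± 0.36 SE, adjusted p = 1.66e-05), and EXPA12 had 8.58, 21.9 and 17.9 against 4.69, 3.4 and 4.08 (log2 fold change 1.99 ± 0.48 SE, adjusted p = 0.00775). EXPA1 had 135, 96 and 148 CPM against 33.7, 49.3 and 46.4 in Col-0 (log2 fold change 1.55 ± 0.24 SE, adjusted p = 0.000434), EXPA8 had 8.96, 5.23 and 10.2 against 2.22, 1.86 and 1.61 (log2 fold change 2.10 ± 0.32 SE, adjusted p = 0.000213), and EXPA10 had 23.2, 10.6 and 11.7 against 4.73, 6.05 and 5.04 (log2 fold change 1.52 ± 0.35 SE, adjusted p = 0.00563). The 6 groups of PSK values lay above Col-0 without overlap, and the calls held without any 1 library. The summed shoot markers, of which 2 of 11 were called higher and 0 lower (list median 1.05), were 537 to 902 CPM in the 11-day roots against 297 to 314 CPM in Col-0 roots, and their part in the higher EXPA10 was not tested. EXPA17, EXPB2, EXPA12 and EXPA1 were higher than in Col-0 without PSK too, and their 11-day values against untreated tpst had log2 fold changes of -0.31, -0.12, -0.16 and 0.20 (adjusted p = 0.113, 0.818, 0.85 and 0.601). The 2 comparisons share the Col-0 libraries. Of the 11 dawn clock genes 9 were higher in 11-day roots than in Col-0 roots and 0 lower (list median 2.01). The part of the time of day was not tested. EXPA15 and EXLA3 were lower than in Col-0 (log2 fold changes -1.06 and -1.43, adjusted p = 0.0238 and 0.0418). EXPA15 was lost without Col-0 replicate 2 (-1.07), Col-0 replicate 3 (-0.99) or 11-day replicate 1 (-0.79), and EXLA3 was kept only without 11-day replicate 2 (log2 fold changes -1.87 to -1.10), so 0 to 4 members were lower over these fits, with 0 without Col-0 replicate 2 or 3 or 11-day replicate 1, 1 without Col-0 replicate 1 or 11-day replicate 3, and 4 without 11-day replicate 2.

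**Figure D4:**
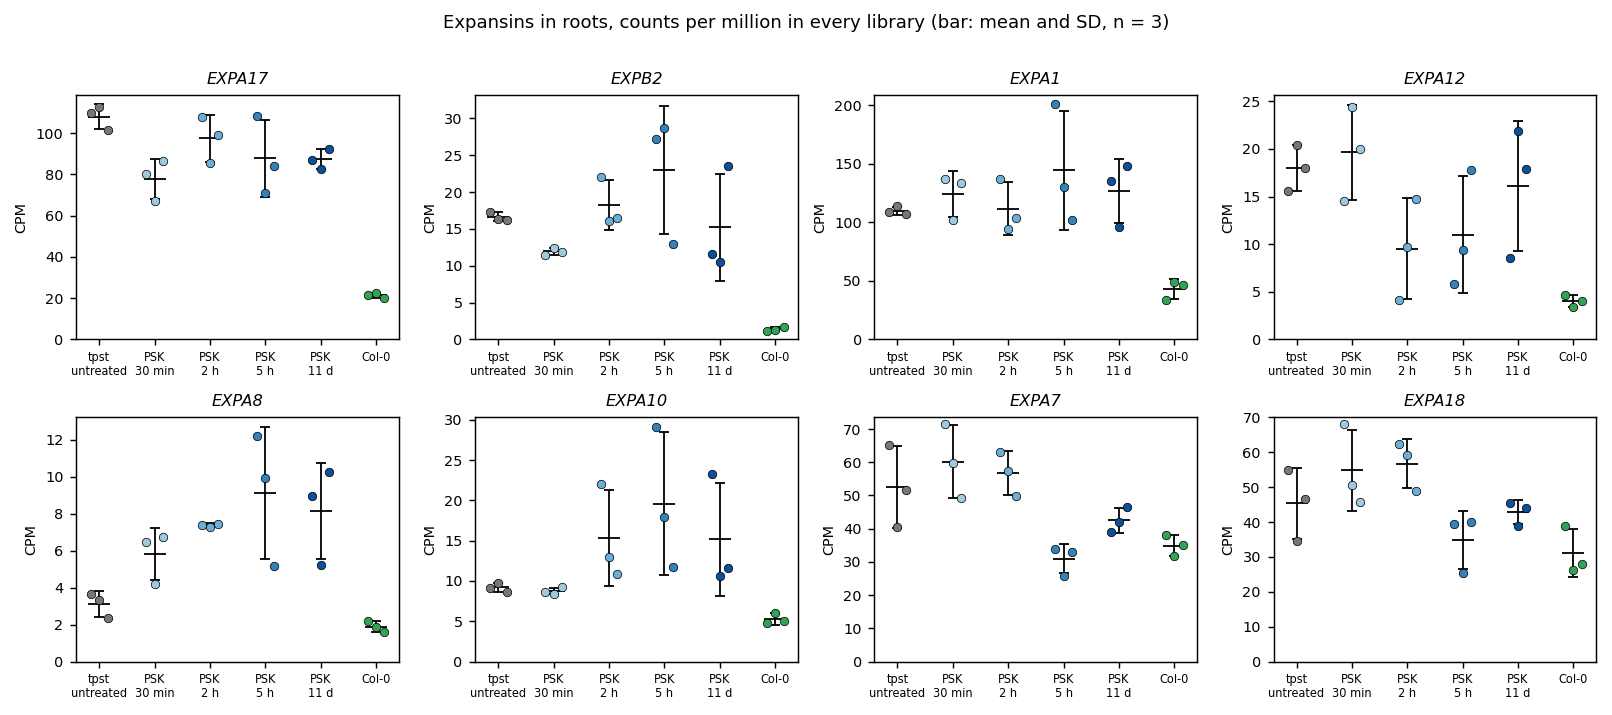
CPM of 8 expansins in every root library by group, from untreated tpst over the PSK times to Col-0. Points are libraries and bars are the mean and SD of 3. EXPA17, EXPB2, EXPA1 and EXPA12 were higher in untreated tpst than in Col-0, EXPA8 rose at 2 h, 5 h and 11 days of PSK, and EXPA7 lay below untreated tpst at 5 h.

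Whether the 2 organs differed was tested on the difference of their log2 fold changes, root minus shoot, over 25 members. Shoot and root libraries were treated as independent, although same-numbered ones may come from the same plants. Pairing them by number ended the PSK calls given below for EXPA5 at 2 h, EXPA3 at 5 h, and EXPA18 and EXPB2 at 11 days. It also ended the genotype call of EXPA18. At 30 min 0 members differed (0%, against 0.00448% of 22303 genes), 3 reached an unadjusted p under 0.05, and the DESeq2 count was 0. At 2 h 1 member differed (4%, against 1.18%), at 5 h 3 (12%, against 7.43%), at 11 days 6 (24%, against 6.42%), and for tpst against Col-0 3 (12%, against 6.62%). EXPA13 and EXPA6, which fell in shoots at 5 h, had root minus shoot differences of 1.23 ± 0.14 SE (adjusted p = 5.24e-07) and 1.04 ± 0.17 SE (adjusted p = 6.76e-05). In roots EXPA13 had 29.6, 31.4 and 33.2 CPM at 5 h against 36, 34.5 and 32.9 in untreated tpst, and EXPA6 had 51.2, 42.8 and 68.2 against 60.6, 69.7 and 66. EXPA6 dropped under the 2-fold minimum without untreated tpst shoot replicate 2 (0.999), untreated tpst root replicate 1 (0.98) or 5 h root replicate 3 (0.83). EXPA3 differed at 5 h (1.21, adjusted p = 0.0192) and at 11 days (1.32, adjusted p = 0.00975). In roots EXPA3 was low, with 1.15, 0.698 and 1.95 CPM at 5 h and 1.33, 1.49 and 1.55 at 11 days. Untreated tpst roots had 1.03, 1.51 and 2.94 CPM, the highest in replicate 3, the library with the high shoot markers. Neither EXPA3 call was lost without that library. Its 5 h call was lost without untreated tpst root replicate 1 (0.93) or 2 (1.09) or 5 h root replicate 3 (0.75), and the 5 h count was 1 without untreated tpst root replicate 1 or 5 h root replicate 3, and 5 without 5 h root replicate 2. Without untreated tpst shoot replicate 3, 5 h shoot replicate 2 or 3 or 5 h root replicate 1, 1 member had a negative difference at 5 h, against 0 with all libraries.

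EXPA7 at 11 days had a difference of 1.76 ± 0.44 SE (adjusted p = 0.00488), kept without any 1 library. EXPA18, EXPB1 and EXPB2 also had positive differences at 11 days (1.51, 1.53 and 1.88, adjusted p = 0.0289, 0.0273 and 0.042), and EXPA10 a negative one (-1.15, adjusted p = 0.0457). Leaving out single libraries ended the call in 5 of 12 fits for EXPA18, 4 for EXPB1, 7 for EXPB2 and 10 for EXPA10, with differences of 1.299 to 1.85, 1.22 to 1.81, 1.41 to 2.502 and -1.59 to -0.96. The count of positive differences at 11 days was 2 without untreated tpst shoot replicate 2, and 3 without 11-day shoot replicate 2 or 3, untreated tpst root replicate 2 or 11-day root replicate 3. At the 3 short times the difference for EXPA10 was -1.27, -1.06 and -1.09 (adjusted p = 0.283, 0.149 and 0.054), so its response was not shown to differ between organs at the short times. EXPA5 at 2 h (-2.50, adjusted p = 0.0328) rested on untreated tpst root replicate 3: without it the difference was -0.78 (adjusted p = 0.609), and 6 other left-out libraries also ended the call (differences of -2.95 to -0.78 over the 12 fits).

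For the genotype, EXPA1 had a difference of 1.28 ± 0.27 SE (adjusted p = 0.00192), kept without any 1 library: it was 2.55-fold higher in tpst roots and had 64.7, 56 and 54.1 CPM in tpst shoots against 57.4, 54.7 and 50.6 in Col-0 shoots. EXPA7 and EXPA18 had negative differences (-1.83 and -1.67, adjusted p = 0.00732 and 0.0312), that is, a larger fold increase in tpst shoots than in tpst roots. EXPA7 was lost without Col-0 shoot replicate 2 (-1.35), and EXPA18 was lost in 6 of 12 such fits (-2.10 to -1.37), with 0 members lower without Col-0 shoot replicate 2. EXPA17 and EXPB2, higher in tpst in both organs, had differences of -1.07 and -1.23 (adjusted p = 0.135 and 0.521).

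Over the 8 comparisons of PSK with untreated tpst, 11 of the 25 tested members were called at least once. The matching share of all genes was not computed, so this count lists names and is no result about the family. In the 5 h shoots alone 7.7% of all genes were called higher and 9.22% lower. EXPA10, EXPA8, EXPA2 and EXPB1 were called higher, EXPA3, EXPA6, EXPA7, EXPA13, EXPA18, EXPB2 and EXLA3 were called lower, and no member was called in both directions. The other 14 were EXPA1, EXPA4, EXPA5, EXPA9, EXPA11, EXPA12, EXPA14, EXPA15, EXPA16, EXPA17, EXPA20, EXLA1, EXLA2 and EXLB1. EXPA20 was called in no comparison of any kind. The 8 comparisons share the untreated tpst libraries of their tissue.

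**Figure D5:**
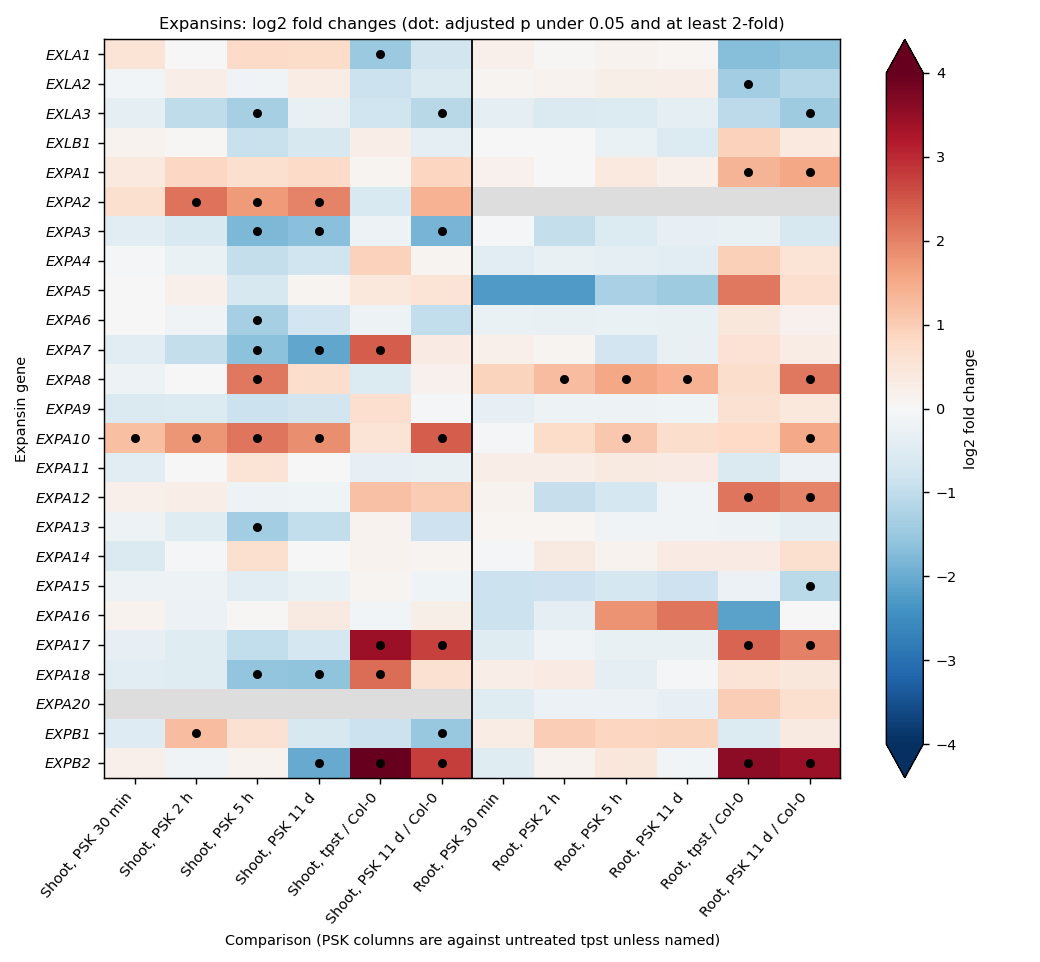
Log2 fold changes of the 25 tested expansins (rows) in 6 shoot and 6 root comparisons (columns), red for higher and blue for lower in the group named first, with colours ending at 4. Black dots are calls at an adjusted p under 0.05 and at least a 2-fold change, and grey cells were not tested. The EXPA10 row is red with dots at all 4 PSK times in shoots, and the EXPA17 and EXPB2 rows are red in both tpst columns.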

How the data were processed

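The authors mapped paired 150-base reads to TAIR10 with HISAT2 2.0.5 after fastp trimming and counted them per gene with featureCounts 1.5.0-p3, and deposited raw counts. The authors also deposited FPKM, which scale those reads by library and gene length. The strand setting of the counting is not given in the sources used here. Members and gene lists were chosen with earlier results of these data known. Counts were fitted with edgeR 4.0.16 (R 4.3.3): TMM, filterByExpr with a minimum of 10 counts, robust quasi-likelihood test, Benjamini-Hochberg adjustment over all genes tested (20811 in shoots, 21358 in roots, 22303 over both), 18 libraries in a tissue fit and 36 for differences between tissues. A call needed an adjusted p under 0.05 and at least a 2-fold change. The script was tested on simulated data. Values in every library are given for EXPA7 and EXPA18 in roots, for up to 6 called members a comparison with the largest fold change and at least 1 CPM, and for the 3 highest by median FPKM. Of the other lists up to 3 called genes a comparison are named, smallest adjusted p first. Col-0 CPM of roots against shoots are scaled with TMM over all 36 libraries, other expansin CPM with TMM within a tissue. CPM of TPST and the marker sums are scaled by total counts alone, without TMM. Alternatives were DESeq2 1.42.0, RLE scaling, no filter, a minimum of 30 counts, the replicate number as a block, the compared libraries alone, no fold minimum, RPKM from the counts in place of FPKM, a search of the forward strand alone, and leaving out each library. Adjusted p-values that DESeq2 gave as NA were kept as NA. Libraries of a group differed by far more than sampling noise, so none was merged. Sequences and protein alignments (Biopython 1.88) used RefSeq TAIR10.1.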

Additional observations from a re-analysis of the deposited data

Results flagged for a closer look

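The following members responded differently in the 2 organs by the test of root minus shoot differences in log2 fold change, edgeR's quasi-likelihood test with Benjamini-Hochberg adjustment. PSK at 2 h gave -2.50 for EXPA5, a value that rests on untreated tpst root replicate 3, the root library with the highest shoot marker sum. PSK at 5 h gave 1.04 for EXPA6, 1.23 for EXPA13 and 1.21 for EXPA3. After 11 days in PSK the differences were -1.15 for EXPA10, 1.76 for EXPA7, 1.51 for EXPA18, 1.32 for EXPA3, 1.53 for EXPB1 and 1.88 for EXPB2. For untreated tpst against Col-0 they were 1.28 for EXPA1, -1.83 for EXPA7 and -1.67 for EXPA18. Of these 13 values, those of EXPA13 at 5 h, EXPA3 and EXPA7 at 11 days and EXPA1 kept their call whichever library was left out. With same-numbered shoot and root libraries paired, EXPA5, EXPB2, EXPA3 at 5 h and EXPA18 (11 days and genotype) lost their call.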

How the results depend on the processing

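Of 86 calls of single members, 60 were kept whichever library was left out, and 71 under every other alternative that gave the member an adjusted p. None of the 86, that is 0, changed sign. Alternatives that filtered a member out or gave no adjusted p were not counted against it, which concerned some calls of EXPA2, EXPB1 and EXPB2. The counts of members called higher or lower, a few genes each, moved more. Under each alternative, a count is given below if it moved by more than 1.5 times, or to or from 0. With no fold minimum the shoot counts were 3 lower at 2 h, 6 higher and 11 lower at 5 h, 4 and 9 at 11 days, 7 higher for tpst, 5 and 5 for 11 days against Col-0, and 4 higher for 5 h against 30 min. The root counts were then 2 higher at 2 h, 2 lower at 5 h, 2 higher and 1 lower at 11 days, 9 and 3 for tpst, and 2 and 1 for 5 h against 30 min, and the differences between organs gave 1 positive at 2 h and 2 positive for tpst. The stricter filter gave 1 higher in shoots at 2 h and at 11 days and 1 negative difference at 5 h. DESeq2 gave 1 lower in shoots at 2 h, 2 lower in tpst roots, 1 negative difference at 5 h and 4 for tpst. The compared libraries alone gave 1 higher in shoots at 11 days, 0 lower in tpst shoots, 1 higher in roots at 5 h, 3 lower in tpst roots, 1 lower in 11-day roots against Col-0, 0 higher in roots at 5 h against 30 min, and negative differences of 1 at 30 min, 0 at 2 h, 0 at 11 days and 4 for tpst. No filter on low counts gave 0 lower in tpst shoots, 1 higher in roots at 5 h, 0 lower in tpst roots, 1 lower in 11-day roots against Col-0, 0 higher in roots at 5 h against 30 min and 0 negative differences at 11 days. The cause of these shifts was not tested. Shoots and roots were separated from lots of seedlings, and no label says whether same-numbered libraries share a lot or a batch. Same-numbered deviations correlated over 0.1 in 21 of 45 pairs in shoots and 25 of 45 in roots (medians 0.0909 and 0.118). Between organs 6 of 18 did (median 0.0622), and all 18 were positive, from 0.0119 to 0.254. The main fits did not take the numbers as pairs. Medians between other numbers were lower (-0.0284 in shoots, -0.0469 in roots), and 12 of 18 shoot and 15 of 18 root libraries correlated best with their own number. With the number as a replicate block, counts were 1 lower in shoots at 2 h, 2 lower in tpst roots, 4 lower in 11-day roots against Col-0, 1 negative difference at 5 h, 3 positive at 11 days and 1 negative for tpst, and the other counts of calls moved by no more than 1.5 times. Of the called members, the difference between organs lost its call under the block for EXPA5 at 2 h (-2.40, adjusted p = 0.109), EXPA3 at 5 h (1.21, adjusted p = 0.0549), EXPA18 and EXPB2 at 11 days (1.53 and 1.78, adjusted p = 0.0764 and 0.0697) and EXPA18 for tpst (-1.66, adjusted p = 0.0905). Leaving out 1 library also moved some counts by less than that. These were 2 to 3 higher and 5 to 8 lower in shoots at 5 h, and 2 to 3 higher in shoots for 5 h against 30 min. Shoots for 11 days against Col-0 had 2 to 3 higher and 2 to 3 lower, and tpst roots had 4 to 6 higher. The larger moves gave these ranges. Shoots had 1 to 3 higher and 0 to 2 lower at 2 h, 1 to 2 higher and 4 to 8 lower at 11 days, 0 to 1 lower for tpst, and 3 to 7 lower for 5 h against 30 min. Roots had 0 to 1 higher at 2 h, 1 to 2 higher and 0 to 1 lower at 5 h, 0 lower for tpst, 0 to 4 lower for 11 days against Col-0, and 0 to 2 higher and 0 to 1 lower for 5 h against 30 min. Differences had 0 to 1 positive and 0 to 1 negative at 2 h, 1 to 5 positive and 0 to 1 negative at 5 h, 2 to 5 and 0 to 1 at 11 days, and 1 to 2 positive and 0 to 2 negative for tpst. Of the uncalled root hair values, EXPA7 at 2 h ranged over log2 fold changes of -0.041 to 0.296 (negative without untreated tpst root replicate 2), and EXPA18 at 11 days over -0.245 to 0.088 (positive without untreated tpst root replicate 1). The ranks by level were the same in RPKM, and the E-box was found in 6 members on the forward strand alone. EXPA2, EXPB1 and EXPB2 in shoots rest on few counts a library, which limits their values.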
